A study of Mus musculus with 6 samples.

Results

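The collagen chains that build the fibrils of hyaline cartilage were followed in the cranial base of mouse embryos at E15.5. These are Col2a1 of collagen II, Col9a1, Col9a2 and Col9a3 of collagen IX, Col11a1 and Col11a2 of collagen XI, and Col27a1 of collagen XXVII. The 7 genes were chosen by name, with earlier results of these data known, and each matched 1 of the 43496 gene entries in the deposited expression table. All 7 lay above the limit for testing, a mean of 1 FPKM over all libraries (FPKM, fragment counts scaled to transcript length and to the size of the library). The cranial base is the cartilage plate under the brain, from which several bones of the skull base form. The study set 3 Memo1 mutant embryos, which carried an allele made with the mutagen ENU, against 3 control embryos, all of the C57BL/6J strain and with 1 library each. Memo1 encodes a mediator of cell movement driven by the ERBB2 receptor. Whether the mutants carried 1 or 2 copies of the allele, and the exact genotype of the controls, is not stated in the labels.

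Collagen II is the main fibrillar collagen of cartilage, made of identical chains. Collagen XI lies inside the collagen II fibril and limits its width, and collagen IX, which cannot form fibrils itself, sits on the fibril surface and links it to other matrix proteins. Collagen XXVII is a fibrillar collagen of thin cartilage fibrils. Chondrocytes make these chains under the control of the transcription factors SOX9, SOX5 and SOX6, and in the growth zones of the skull base the cartilage is later replaced by bone. In people, changes in the genes of collagens II, IX and XI cause Stickler syndrome or other dysplasias of the skeleton.

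The promoters of these genes differ in sequence even between chains that share a molecule. RefSeq (GRCm38.p6) held the sequence before the start site for 5 of the 7 genes. The 250 bases before each start are shown here for both start sites of Col9a1, for its partner Col9a2, and for the pair of collagen XI chains, because chains of 1 molecule are compared below. Capitals mark the GC box GGGCGG and the TATA box TATAAA, searched on both strands.
Col9a1, first start site, chr1:24177360-24177609, plus strand: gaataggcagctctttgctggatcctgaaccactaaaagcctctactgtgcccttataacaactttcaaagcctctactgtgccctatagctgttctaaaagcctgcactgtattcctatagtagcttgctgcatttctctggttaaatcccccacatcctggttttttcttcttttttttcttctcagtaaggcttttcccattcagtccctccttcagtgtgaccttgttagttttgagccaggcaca
Col9a1, second start site, chr1:24194953-24195202, plus strand: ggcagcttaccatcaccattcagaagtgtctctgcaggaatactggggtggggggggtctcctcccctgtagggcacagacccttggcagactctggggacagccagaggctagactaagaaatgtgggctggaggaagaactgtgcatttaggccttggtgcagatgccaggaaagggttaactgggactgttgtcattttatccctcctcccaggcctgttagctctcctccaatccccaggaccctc
Col9a2, chr4:121039316-121039565, plus strand: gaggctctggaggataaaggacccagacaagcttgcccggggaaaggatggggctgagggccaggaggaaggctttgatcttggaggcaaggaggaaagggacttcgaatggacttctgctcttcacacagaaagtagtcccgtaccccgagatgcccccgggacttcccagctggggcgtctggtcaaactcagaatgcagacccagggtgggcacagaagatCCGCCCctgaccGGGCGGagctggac
Col11a1, chr3:114030290-114030539, plus strand: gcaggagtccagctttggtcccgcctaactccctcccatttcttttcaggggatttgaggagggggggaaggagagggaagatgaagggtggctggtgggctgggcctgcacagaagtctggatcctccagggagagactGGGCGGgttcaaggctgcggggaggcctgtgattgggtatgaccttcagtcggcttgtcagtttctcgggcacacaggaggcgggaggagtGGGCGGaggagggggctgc
Col11a2, chr17:34038888-34039137, plus strand: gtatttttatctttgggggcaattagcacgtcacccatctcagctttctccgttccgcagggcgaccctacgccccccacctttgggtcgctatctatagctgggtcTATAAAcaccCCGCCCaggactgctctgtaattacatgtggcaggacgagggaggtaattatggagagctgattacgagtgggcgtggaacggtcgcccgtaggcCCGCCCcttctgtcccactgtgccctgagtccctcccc
Neither start of Col9a1 had a GC box, whereas Col9a2, Col11a1 and Col11a2 had 2 each, as 32.7% of all 32851 windows of this length had at least 1. Col11a2 alone of these windows had the letters of a TATA box (12.4% of all windows), 143 bases before its start. The SOX-type letters ACAAT and ACAAAG were in none of the 6 windows of the 5 members, against 38.8% of all windows with 1 or both. Sequence outside these windows was not searched, so whether SOX sites lie elsewhere in these genes was not tested. The upstream start of Col9a1 is known to serve the long form of cartilage and the downstream start a short form of the eye. The table gives 1 value per gene, so forms of 1 gene were not told apart.

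The library of mutant 1 stood apart from the other 5 and the changes of the 7 chains are therefore also given without it. It listed 30811 entries at 0, against 19787 to 20594 in the other 5 libraries. Its log2 values over the tested genes correlated with those of the others at r = 0.748 to 0.762, and 823 genes above 5 FPKM in all other libraries were listed at 0 in it. No member was listed at 0 in any library. Memo1 itself was 25.4, 20.1 and 22.2 FPKM in mutants 1, 2 and 3 and 19.1, 23.1 and 21.9 FPKM in controls 1, 2 and 3, so its mRNA level does not tell the genotypes apart. The table holds no counts, so the depth behind each value is not given.

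The order of the chains by level was nearly the same in every library. Col2a1 was the highest in all 6, and by its mean of 2166 FPKM over all libraries it ranked 8 of 43481 entries. Col9a3 (mean 1002 FPKM), Col9a2 (729 FPKM) and Col9a1 (505 FPKM) followed in this order in all 6 libraries. Col11a1 (419.9 FPKM) and Col11a2 (396 FPKM) changed places, with Col11a1 higher in 3 of the 6. Col27a1 was the lowest in all 6 libraries, with a mean of 63.8 FPKM.

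**Figure D1:**
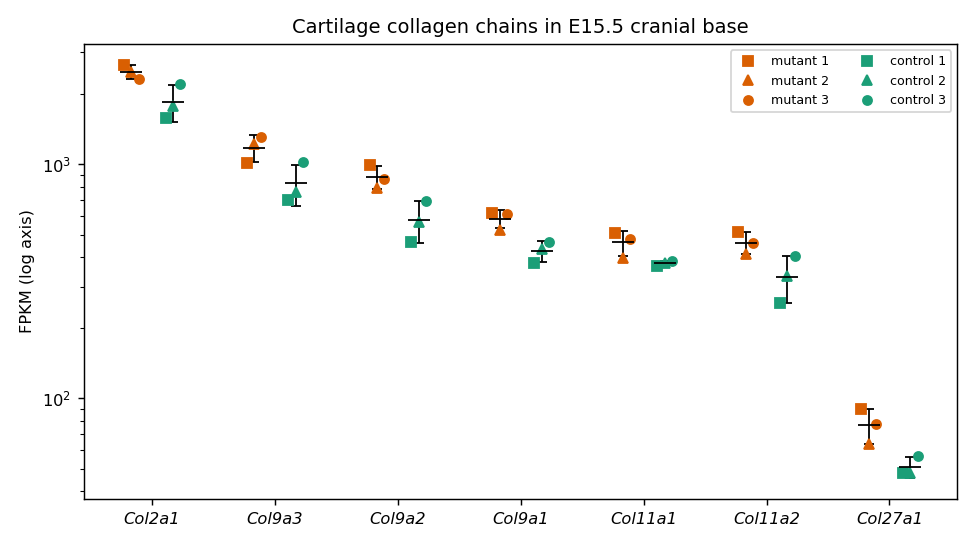
Level of each chain in FPKM on a log axis, by library. Points are single embryos (the symbol shows the replicate number, which pairs no samples), and bars give the mean and SD of 3 mutants (left) and 3 controls (right). Only for Col9a3 do the groups overlap, where mutant 1 lies at 1008 FPKM and control 3 at 1018 FPKM.

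All 7 chains were higher in the mean of the mutants than in that of the controls, by 1.23- to 1.53-fold, and none passed the test over all genes. With equal weights limma called 0 of 7 members and 0 of 15710 genes at a Benjamini-Hochberg adjusted p of 0.05 (0.0% of all genes tested). At an unadjusted p under 0.05 the higher genes held 7 of 7 members, against 2.11% of all genes tested. That count of members was 4 with median-of-ratios scaling, with plain eBayes or without mutant 3, and 3 without control 1 or control 2. The median log2 change over the members was 0.50, against -0.046 over all tested genes. In 6 of the 7 every mutant lay above every control, as in 8.98% of all genes tested. These counts only describe the list, which was chosen with earlier results of these data known. The chains are made by the same cells and do not vary independently of each other. In bulk tissue, more RNA per chondrocyte and more chondrocytes in the sample cannot be told apart.

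For collagen II, Col2a1, the chain of the fibril core, was 2659.8, 2482 and 2315 FPKM in mutants 1, 2 and 3 and 1569.8, 1764 and 2207 FPKM in controls 1, 2 and 3. Every mutant lay above every control, with control 3 closest to the mutants. The means were 2486 ± 172 FPKM in mutants and 1847 ± 327 FPKM in controls (SD, n = 3 each). The log2 change was 0.44 (SE 0.14, limma adjusted p = 0.695), and 0.39 without mutant 1 (limma adjusted p = 0.261).

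For collagen XI, Col11a1, whose loss in the chondrodysplasia mouse shortens the limbs and skull, was 510, 399 and 479 FPKM in mutants 1, 2 and 3 and 367, 379.6 and 385 FPKM in controls 1, 2 and 3. The controls lay close together, and mutant 2 was only slightly above them. It had the smallest change of the 7, with a log2 change of 0.29 (SE 0.11, limma adjusted p = 0.695), and 0.21 without mutant 1 (limma adjusted p = 0.333). Col11a2, the other chain made only for collagen XI and related hybrids, was 511, 413 and 461 FPKM in mutants 1, 2 and 3 and 255, 332 and 404 FPKM in controls 1, 2 and 3. Here the controls spread widely, with control 3 just below mutant 2. Its log2 change was 0.50 (SE 0.19, limma adjusted p = 0.695), and 0.43 without mutant 1 (limma adjusted p = 0.323). Without control 1, the lowest library, it was 0.33.

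For collagen IX, Col9a1, the chain with the large globular end in cartilage, was 616, 525 and 609 FPKM in mutants 1, 2 and 3 and 377, 435 and 466 FPKM in controls 1, 2 and 3. Every mutant lay above every control. The log2 change was 0.45 (SE 0.11, limma adjusted p = 0.695), and 0.41 without mutant 1 (limma adjusted p = 0.169). Col9a2, a chain whose human form is altered in multiple epiphyseal dysplasia, was 993, 789 and 867 FPKM in mutants 1, 2 and 3 and 464, 566 and 697 FPKM in controls 1, 2 and 3. It had the largest change of the 7 in this fit, again with no overlap, at a log2 change of 0.63 (SE 0.17, limma adjusted p = 0.695), and 0.54 without mutant 1 (limma adjusted p = 0.196). Col9a3, the third chain, was 1008, 1215 and 1305 FPKM in mutants 1, 2 and 3 and 705, 758 and 1018 FPKM in controls 1, 2 and 3. Mutant 1 was the lowest mutant here and fell within the range of the controls. The log2 change was 0.52 (SE 0.17, limma adjusted p = 0.695), and 0.62 without mutant 1 (limma adjusted p = 0.148). The exons of Col9a3 share 234 of their 3853 bases with Tcfl5 on the opposite strand, and whether strand was used in counting is not given. Tcfl5 was at most 2.27 FPKM in any library.

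The collagen XXVII gene Col27a1 was 89.8, 63.5 and 77.3 FPKM in mutants 1, 2 and 3 and 47.7, 47.7 and 56.7 FPKM in controls 1, 2 and 3. Every mutant lay above every control. The log2 change was 0.58 (SE 0.16, limma adjusted p = 0.695), and 0.46 without mutant 1 (limma adjusted p = 0.151). The gene of miR-455, a microRNA of cartilage, lies in an intron of Col27a1 and was listed at 0 in all 6 libraries.

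The members also varied alike between embryos of 1 genotype. Mutant 1 was the highest mutant for 6 of the 7, all but Col9a3, and mutant 2 the lowest for 5. Among the controls, control 1 was the lowest and control 3 the highest for all 7. The spread between controls was therefore shared, from a CV of 2.40% for Col11a1 to 22.5% for Col11a2. Embryos also share words in their titles, whose meaning is not given. Mutant 1 has the same word as control 1, and against it the log2 differences ran from 0.47 for Col11a1 to 1.10 for Col9a2 (median of all tested genes -0.082). Mutant 3 has the word of controls 2 and 3, and against their mean they ran from 0.23 for Col2a1 to 0.57 for Col9a3 (median of all tested genes -0.0065). Mutant 2 has a word of its own. All 7 differences were above 0 in both comparisons.

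**Figure D2:**
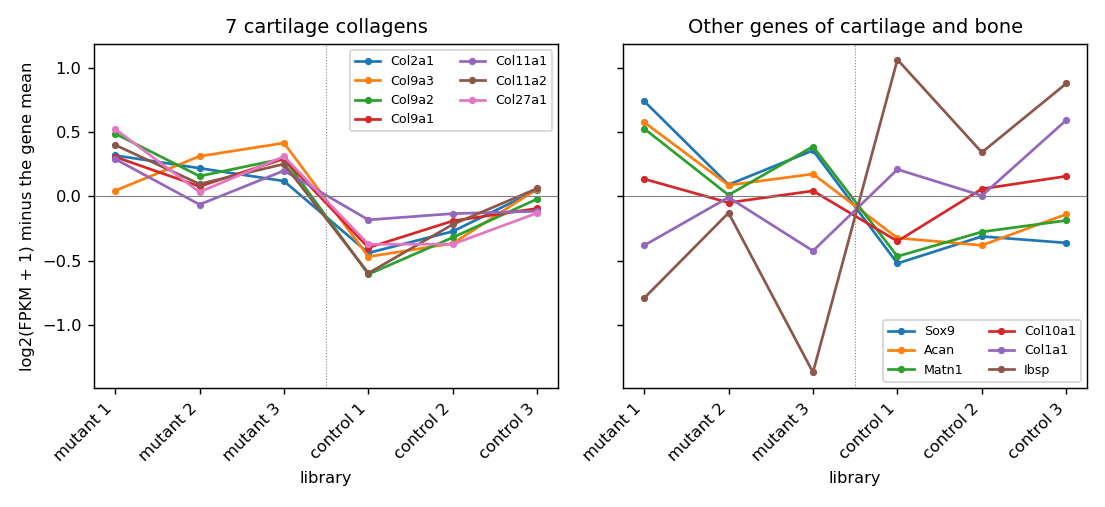
Log2(FPKM + 1) of each gene minus its own mean over the 6 libraries, for the 7 chains (left panel) and for Sox9, Acan, Matn1, Col10a1, Col1a1 and Ibsp (right panel); lines only join the values of 1 gene. The 7 chains lie lowest in control 1, and Col1a1 and Ibsp lie lower in mutants than in controls.

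With array weights, which let a library far from its group count less, the adjusted p of the chains came closer to the threshold without passing it. Unadjusted p-values also fell over all genes: 18.3% of those tested were under 0.05 in limma, against 5.12% with equal weights. The weight was 0.0329 for mutant 1 and between 1.47 and 2.76 for the rest. This fit called 0 of the 7 members and 320 genes (2.04% of all genes tested), of which 113 were higher (0.719%) and 207 lower in mutants (1.32%). All 7 members were higher at an unadjusted p under 0.05, as were 7.85% of all genes tested. The weighted limma adjusted p was 0.0577 for Col27a1, 0.0605 for Col9a3, 0.0687 for Col9a1 and 0.0908 for Col9a2. It was 0.156 for Col2a1, 0.157 for Col11a1 and 0.188 for Col11a2. Without mutant 1, limma called 0 members and 7 genes (0.0446% of all genes tested), of which 2 were higher (0.0127%) and 5 lower in mutants (0.0318%). Then 5 members were higher at an unadjusted p under 0.05, as were 7.56% of all genes tested, and all 7 lay above every control, as did 16.2%.

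**Figure D3:**
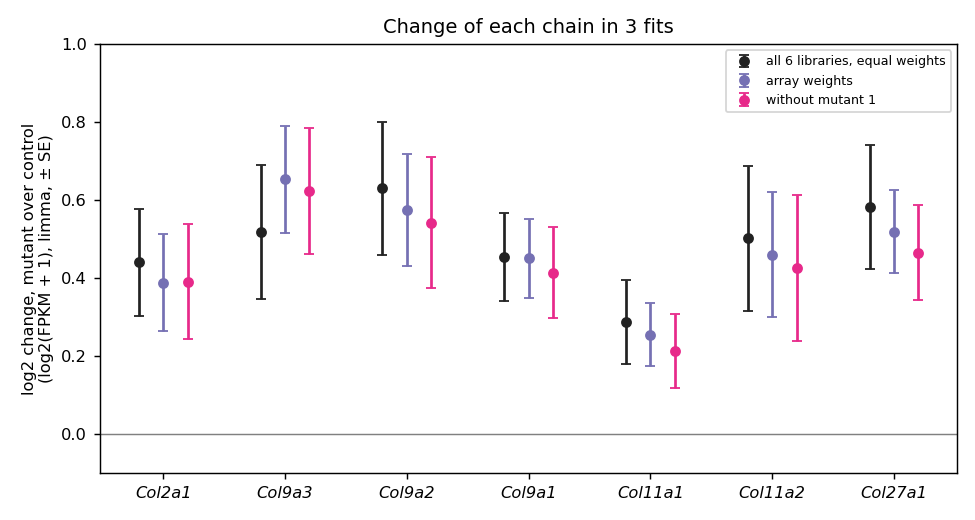
Log2 change of each chain, mutant over control, on the log2(FPKM + 1) scale with its SE, from limma with all 6 libraries at equal weights, with array weights and without mutant 1. All values lie above 0, from 0.21 for Col11a1 without mutant 1 to 0.65 for Col9a3 with array weights.

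The authors' deposited table gave folds of mutant over control from 1.23 for Col11a1 to 1.53 for Col9a2. In the authors' deposited table the p-value was lowest for Col9a1 (0.0177) and highest for Col11a2 (0.0759). The q-values in the authors' deposited table ran from 0.326 to 0.482, all above 0.05.

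Together the 7 chains took a larger share of all FPKM in mutants than in controls. The share was 1.13%, 1.16% and 1.24% in mutants 1, 2 and 3 and 0.734%, 0.826% and 1.01% in controls 1, 2 and 3, without overlap. The means were 1.17% ± 0.0599 in mutants and 0.855% ± 0.138 in controls (SD, n = 3 each). The exact permutation test gave a two-sided p of 0.1, the smallest that 3 against 3 embryos allow. The difference of the means was 0.319 percentage points, and 0.344 without mutant 1.

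Ratios between chains within a library do not depend on library size, and between the cartilage chains they overlapped in every pair over the 6 libraries. In all 13 pairs were compared with exact two-sided permutation tests, which cannot give a p below 0.1 with 3 against 3 embryos, so no pair could pass and these p-values do not show that ratios were alike. Without mutant 1 the ratio of Col9a3 to Col2a1 did not overlap, at 0.489 and 0.564 in mutants 2 and 3 and 0.430 to 0.461 in controls. Its log2 difference was 0.077 with mutant 1, where the ratio was 0.379, and 0.23 without it. Collagen IX is built from 1 chain of each of its 3 genes. The ratio of Col9a2 to Col9a3 was 0.984, 0.649 and 0.665 in mutants 1, 2 and 3 and 0.657, 0.747 and 0.685 in controls 1, 2 and 3. Mutant 1 alone was near 1, and without it the log2 difference turned from 0.11 to -0.082. The ratio of Col9a1 to Col9a2 was 0.620 to 0.703 in mutants and 0.668 to 0.812 in controls (log2 difference -0.18, exact permutation p = 0.2).

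In collagen XI, Col11a1 and Col11a2 were nearly even in mutants, with ratios of 0.999, 0.964 and 1.04 in mutants 1, 2 and 3. In controls 1, 2 and 3 the ratios were 1.44, 1.14 and 0.953. The mutants were close together and the controls spread around them (log2 difference -0.21, exact permutation p = 0.4). Without control 1 the difference was -0.060, and without control 3 it was -0.36. Against Col2a1, whose chain is also the third chain of collagen XI, Col11a1 had ratios of 0.161 to 0.207 in mutants and 0.174 to 0.234 in controls. For Col11a2 they were 0.167 to 0.199 in mutants and 0.162 to 0.188 in controls.

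Against Col2a1, collagens of bone and of mature cartilage had ratios that did not overlap between the groups, at the smallest p that 3 against 3 embryos allow. Col1a1, the main collagen chain of bone and connective tissue, was 687, 891 and 667 FPKM in mutants 1, 2 and 3 and 1037, 899.7 and 1354 FPKM in controls 1, 2 and 3 (log2 change -0.54, limma adjusted p = 0.695). Its ratio to Col2a1 was 0.258, 0.359 and 0.288 in mutants 1, 2 and 3 and 0.661, 0.510 and 0.614 in controls 1, 2 and 3. Every mutant lay below every control, with a log2 difference of -0.98 (exact permutation p = 0.1, adjusted over the pairs 0.65). Col10a1, the collagen of hypertrophic chondrocytes, was 429.5, 378 and 403 FPKM in mutants 1, 2 and 3 and 306.5, 407 and 436 FPKM in controls 1, 2 and 3. Its own level overlapped between the groups and was not lower in mutants (log2 change 0.088, limma adjusted p = 0.776). Its ratio to Col2a1 was 0.161, 0.152 and 0.174 in mutants 1, 2 and 3 and 0.195, 0.231 and 0.198 in controls 1, 2 and 3. In this ratio too the groups were apart, with a log2 difference of -0.35 (exact permutation p = 0.1, adjusted over the pairs 0.65). These differences were -0.88 and -0.35 without mutant 1.

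**Figure D4:**
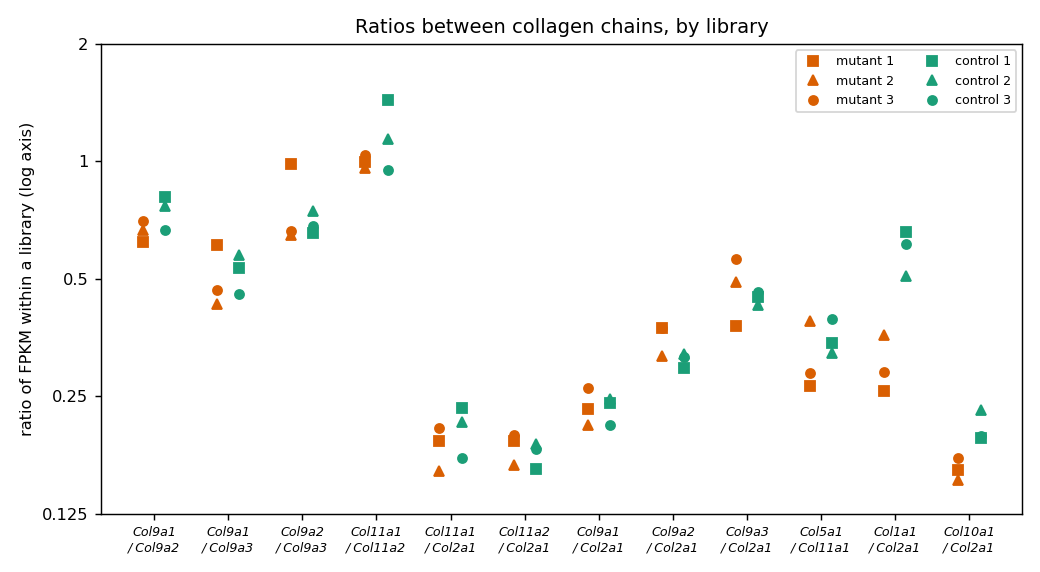
Ratio of FPKM between collagen chains within each library, on a log axis, with mutants left of controls in each pair; the ratio of Col27a1 to Col2a1 is not drawn. The groups are apart only for Col1a1 and Col10a1 against Col2a1, where the mutants lie lower.

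The other fibrillar collagens lay on both sides of 0. Of 7 such genes, 3 had a log2 change above 0 and 4 below, the median was -0.17, and none passed in either direction with equal or array weights. Col1a2, the partner of Col1a1, was 649 ± 88.7 FPKM in mutants and 1067 ± 169 FPKM in controls (SD, n = 3 each), with every mutant below every control. Col24a1, a fibrillar collagen of developing bone, was 3.6, 7.37 and 5.98 FPKM in mutants 1, 2 and 3 and 8.55, 7.82 and 11.7 FPKM in controls 1, 2 and 3. Col5a1, whose chain can join those of collagen XI, was 143 ± 11.2 FPKM in mutants and 133 ± 16 FPKM in controls (SD, n = 3 each). Col3a1, Col5a2 and Col5a3 overlapped between the groups as well. Among 9 collagens linked to fibrils or to cartilage zones, among them Col10a1 and the chains of collagens VI, XII and XIV, the median log2 change was 0.054 and none passed.

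Regulators of the cartilage collagen genes were mostly higher in mutants. Of 17 tested, 11 had a log2 change above 0 (45.8% of all genes tested did), and none passed with equal weights. With array weights 4 rose and 1 fell, against 0.719% and 1.32% of all genes tested. Sox9, the factor that switches on Col2a1 and the genes of collagens IX and XI, was 55.1, 34.7 and 41.9 FPKM in mutants 1, 2 and 3 and 22.3 to 26.0 FPKM in the 3 controls (weighted limma adjusted p = 0.0332). Every mutant lay above every control. Sox5, which acts with SOX9 on these genes, was 7.01, 15.9 and 15.9 FPKM in mutants 1, 2 and 3 and 10.6, 8.99 and 9.77 FPKM in controls 1, 2 and 3 (weighted limma adjusted p = 0.0346). The library of mutant 1 lay below all controls, and mutants 2 and 3 above them. Sox6, its close relative, was 8.94 ± 0.513 FPKM in mutants and 8.33 ± 0.161 FPKM in controls (SD, n = 3 each; weighted limma adjusted p = 0.823).

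The other regulators that passed with array weights were Nkx3-2, Wwp2 and Barx1. Nkx3-2, a repressor that favours the early chondrocyte state, was 16.5, 13.5 and 12.1 FPKM in mutants 1, 2 and 3 and 4.55, 5.45 and 6.59 FPKM in controls 1, 2 and 3 (weighted limma adjusted p = 0.0223). Wwp2, a ubiquitin ligase whose gene hosts the cartilage microRNA miR-140, was 81.7, 64.3 and 84.6 FPKM in mutants 1, 2 and 3 and 46.5, 49.5 and 50.6 FPKM in controls 1, 2 and 3 (weighted limma adjusted p = 0.0381). Barx1, a homeobox factor of head mesenchyme, fell to 24.4 ± 3.15 FPKM in mutants, against 36.4 ± 2.83 FPKM in controls (SD, n = 3 each; weighted limma adjusted p = 0.0449). Without mutant 1 the limma adjusted p of these 5 genes ran from 0.0623 for Nkx3-2 to 0.114 for Wwp2.

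Proteins that share the matrix with the collagens were partly higher. Of 17 tested matrix partners, 11 had a log2 change above 0 (45.8% of all genes tested did). With array weights 3 rose and 1 fell (0.719% and 1.32% of all genes tested). Acan, the large proteoglycan aggrecan that fills the collagen network, was 142, 100.8 and 107 FPKM in mutants 1, 2 and 3 and 75.5, 72.5 and 86.0 FPKM in controls 1, 2 and 3 (weighted limma adjusted p = 0.0491). The other 2 that rose were Matn4, a matrilin that links matrix fibrils (weighted limma adjusted p = 0.0164), and Lect1, the cartilage glycoprotein chondromodulin (weighted limma adjusted p = 0.0352). Prg4, the lubricin of joint surfaces, was listed at 0 in mutant 1, was 1.70 and 1.28 FPKM in mutants 2 and 3, and was 2.98, 3.25 and 3.68 FPKM in controls 1, 2 and 3 (weighted limma adjusted p = 0.0478). Matn1, a matrilin of cartilage, was 467.5, 326 and 424 FPKM in mutants 1, 2 and 3 and 234, 267 and 284 FPKM in controls 1, 2 and 3 (weighted limma adjusted p = 0.0605).

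The machinery that folds and modifies collagen showed 1 change past the threshold. Of 20 tested genes 13 had a log2 change above 0 (45.8% of all genes tested did), with a median of 0.13. With array weights 1 rose (0.719% of all genes tested) and 0 fell. P4ha1, a catalytic subunit of the prolyl hydroxylase that stabilises the triple helix, was 111, 116.7 and 114.6 FPKM in mutants 1, 2 and 3 and 91.5, 87.2 and 89.0 FPKM in controls 1, 2 and 3. The groups were far apart relative to their spread (log2 change 0.35, limma adjusted p = 0.695, weighted limma adjusted p = 0.0343). Plod2, a lysyl hydroxylase that prepares cross-links, was 108 ± 22.5 FPKM in mutants and 71.0 ± 2.58 FPKM in controls (SD, n = 3 each; weighted limma adjusted p = 0.0611). Serpinh1, the collagen chaperone HSP47, was 1358 ± 61.0 FPKM in mutants and 1217 ± 25.2 FPKM in controls (SD, n = 3 each; weighted limma adjusted p = 0.281).

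Export and extracellular processing gave 1 gene past the threshold with array weights. Of 7 export genes 4 had a log2 change above 0 (45.8% of all genes tested did) and none passed. Creb3l2, a factor that raises export genes in chondrocytes, was 37.3 ± 2.75 FPKM in mutants and 30.7 ± 1.65 FPKM in controls (SD, n = 3 each; weighted limma adjusted p = 0.0818). Of 12 genes of processing and cross-linking, 6 had a log2 change above 0, and with array weights 1 rose (0.719% of all genes tested). Pcolce2, which speeds the removal of the procollagen end, was 23.6, 67.1 and 73.4 FPKM in mutants 1, 2 and 3 and 40.4, 44.1 and 41.8 FPKM in controls 1, 2 and 3 (weighted limma adjusted p = 0.0234). Mutant 1 lay below the controls and mutants 2 and 3 above them. Bmp1, the protease that removes this end, was 56.2 ± 2.88 FPKM in mutants and 46.7 ± 1.33 FPKM in controls (SD, n = 3 each; weighted limma adjusted p = 0.126). Pcolce went the other way, with every mutant below every control. Its level was 177 ± 14.2 FPKM in mutants and 224 ± 24.8 FPKM in controls (SD, n = 3 each, weighted limma adjusted p = 0.152).

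Collagen receptors were mostly higher. Of 7 tested, 6 had a log2 change above 0 (45.8% of all genes tested did), and in 4 every mutant lay above every control (8.98%). With array weights 1 rose (0.719% of all genes tested). Itga10, the integrin chain by which chondrocytes bind collagen II, was 47.5, 15.3 and 15.3 FPKM in mutants 1, 2 and 3 and 11.5, 10.5 and 12.3 FPKM in controls 1, 2 and 3 (weighted limma adjusted p = 0.1). Mutant 1 stood far above all other libraries. Itga11, a collagen-binding integrin chain of fibroblasts, was 5.24, 8.01 and 8.17 FPKM in mutants 1, 2 and 3 and 5.36, 5.43 and 5.36 FPKM in controls 1, 2 and 3 (weighted limma adjusted p = 0.0493).

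Genes of cartilage collagen breakdown, a list of enzymes that also holds the inhibitor gene Timp1, were lower in part. Of 10 tested genes 3 had a log2 change above 0 (45.8% of all genes tested did) and 7 below. In 3 every mutant lay above every control (8.98% of all genes tested), and in 5 below (11.9%). The list's Mmp13, Mmp8, Mmp3 and Timp1 were listed at 0 in mutant 1. With array weights 3 fell (1.32% of all genes tested). Mmp13, the collagenase that cuts collagen II, was listed at 0 in mutant 1, was 1.28 and 1.19 FPKM in mutants 2 and 3, and was 27.0, 19.0 and 33.3 FPKM in controls 1, 2 and 3 (weighted limma adjusted p = 0.00159, and 0.00981 without mutant 1). Mmp9, a gelatinase, was 5.31 ± 0.806 FPKM in mutants and 25.6 ± 5.98 FPKM in controls (SD, n = 3 each; weighted limma adjusted p = 0.0103). Ctsk, the collagen-cutting cathepsin of osteoclasts, was 37.3 ± 6.07 FPKM in mutants and 72.6 ± 11.9 FPKM in controls (SD, n = 3 each; weighted limma adjusted p = 0.0475). Mmp2, which acts on cleaved collagen, was 207 ± 11.9 FPKM in mutants and 174 ± 6.67 FPKM in controls (SD, n = 3 each; weighted limma adjusted p = 0.131). Without mutant 1, Mmp13 was the only gene of these 7 lists, from the regulators to the breakdown genes, that passed.

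Markers of cartilage were present in all libraries, and markers of several other cell types were lower in mutants. All 7 cartilage markers (Acan, Matn1, Matn3, Comp, Hapln1, Lect1 and Sox9) had a log2 change above 0 (45.8% of all genes tested did). Their summed levels were 1579 to 1970 FPKM in mutants and 1201 to 1386 FPKM in controls. Of these, Acan, Matn1, Lect1 and Sox9 were already counted among the matrix partners or regulators above. In each of those 2 lists 6 of 17 tested genes were below 0. Of 9 tested osteoblast markers 8 were below 0 (summed 368 to 632 FPKM in mutants and 970.1 to 1374 FPKM in controls), and of 8 epithelial markers 6 (377 to 419 FPKM in mutants and 688 to 699 FPKM in controls). All 7 fat cell markers were below 0, with sums of 142 to 218 FPKM in mutants and 423 to 519 FPKM in controls, and 5 of them were listed at 0 in mutant 1. Most of these sums came from 1 gene, Car3, at 133 ± 34.9 FPKM in mutants and 332 ± 32.6 FPKM in controls (SD, n = 3 each). Of 6 muscle markers 5 were below 0, with sums of 2718 to 3293 FPKM in mutants and 3670 to 5222 FPKM in controls. With array weights 3 osteoblast, 6 epithelial and 6 fat cell markers fell (1.32% of all genes tested did). Without mutant 1 the counts were 0, 2 and 2, and with equal weights none passed. The defining markers listed at 0 in mutant 1 were Bglap, Bglap2 and Mepe of osteoblasts and Adipoq, Plin1, Cidec, Gpd1 and Pparg of fat cells.

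The sums of the remaining marker lists overlapped between the groups. For blood and macrophages 6 of 7 markers were below 0, with sums of 1231 to 1398 FPKM in mutants and 1379 to 1674 FPKM in controls. For nerve 3 of 5 were below 0, with sums of 111 to 151 FPKM in mutants and 102 to 189 FPKM in controls. For tendon and perichondrium 4 of 6 were above 0, with sums of 638 to 756 FPKM in mutants and 692 to 759 FPKM in controls, and with array weights 2 rose (Scx and Fbln2, against 0.719% of all genes tested). Without mutant 1 the limma adjusted p was 0.105 for Scx and 0.0511 for Fbln2, and with equal weights 0.695 for both. For endothelium 4 of 6 were above 0, with sums of 151 to 169 FPKM in mutants and 144 to 161 FPKM in controls. The part of all these marker differences in the collagen levels was not tested.

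The genes whose profile over the 6 libraries was most like the mean profile of the 7 chains were ranked among 8020 genes that averaged 10 FPKM or more and had no library at 0. Since the chains differ between the groups, this ranking favours genes that do so too, and it is a description only. Mmp14, a membrane-bound collagenase, came first (Pearson r = 0.990, and 0.997 over the 5 libraries without mutant 1). It was 180.8, 177 and 182 FPKM in mutants 1, 2 and 3 and 159, 163 and 172.5 FPKM in controls 1, 2 and 3, a smaller difference than for the chains. The next were Dip2a (r = 0.985), the prostaglandin D synthase gene Ptgds (r = 0.982), Egfl6, a secreted matrix protein (r = 0.982), Thbs4, a thrombospondin of tendon (r = 0.975), and Zfp651 (r = 0.974).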

How the data were processed

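Cranial bases were dissected at E15.5, kept in RNAlater until genotyping, and total RNA was purified with a column kit before Illumina library preparation, per the labels' protocols. The deposited table holds FPKM values for 43496 entries in 3 mutant and 3 control libraries, made with Cufflinks on build mm9, per the submitters' processing notes. The unit was inferred from the tool and the values. No source used here gives the aligner, the annotation or filters. The deposited fold column is a score with a sign, negative where the mutants were lower, and the deposited q-value column holds a code in place of q in many rows, though in none of the members, and no source used here names the test behind the deposited p-value column. The code 999999999 was treated as missing, which left out 15 entries and no member.

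The 15710 genes that averaged 1 FPKM or more across the 6 libraries were fitted with limma 3.58.1 (R 4.3.3) on log2(FPKM + 1), with lmFit, eBayes with trend and robust, genotype as the only term, two-sided, Benjamini-Hochberg adjustment over all tested genes and a threshold of 0.05. Log2 changes are on this scale, which understates changes at low levels. Weights per library were estimated with arrayWeights, and title words were also fitted as a random term with duplicateCorrelation (statmod 1.5.0). The pseudocount, the filter, the scaling, the weights, the title word and each library were varied. The fit was tested on simulated data with independent noise for each gene and a separate spread for mutant 1. These data held neither the many entries listed at 0 in mutant 1 nor the shared variation of the chains. The simulation therefore cannot vouch for the calls made with array weights. Replicates are separate embryos by their labels, and their numbers follow accession order. Whether title words mark litters is not given. At most 0.00641% of values were equal between any 2 libraries.

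The members, gene lists and tests were chosen with earlier results of these data known. The genes named are the 7 members, Memo1, the other fibrillar collagens, Col10a1, Acan, Sox9, Sox5 and Sox6, up to 4 genes of each list chosen by lowest unadjusted p (not all are printed), and the 6 genes most like the members. Prg4, Pcolce2 and Tcfl5 were added after their values were seen, as was the gene of miR-455. Gene overlaps were read from GENCODE M21 (GRCm38), another build than that of the table, and no coordinates were carried between them.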

Additional observations from a re-analysis of the deposited data

How the results depend on the processing

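All 7 chains kept a log2 change above 0 and none passed the threshold under the 16 alternatives, so the 112 recomputed changes had the same direction. Their limma adjusted p ran from 0.0577 (Col27a1, array weights) to 0.872 (all 7, without control 3). The count of all genes called by limma was 0 with equal weights, 1 at a mean of at least 10 FPKM, 1 with quantile normalization, 320 with array weights, and 0 to 7 when 1 library was left out, the 7 without mutant 1. The median log2 change of the members ran from 0.37 to 0.66 when 1 library was left out, the highest without control 3. Median-of-ratios scaling moved the median log2 change of all genes to -0.099, where that of the members was 0.44. The number of members whose groups do not overlap was 6 of 7, and 6 or 7 under the scalings and with 1 library left out.

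Of 10 log2 ratio differences between cartilage chains, 5 changed sign when 1 library was left out. They ranged from -0.21 to 0.039 for Col9a1/Col9a3, from -0.082 to 0.22 for Col9a2/Col9a3, from -0.0025 to 0.14 for Col11a2/Col2a1, from -0.069 to 0.089 for Col9a1/Col2a1, and from -0.053 to 0.23 for Col9a3/Col2a1. The other 5 kept their sign, with ranges of -0.26 to -0.11 for Col9a1/Col9a2, -0.36 to -0.060 for Col11a1/Col11a2, -0.27 to -0.050 for Col11a1/Col2a1, 0.15 to 0.27 for Col9a2/Col2a1 and 0.074 to 0.27 for Col27a1/Col2a1. Col1a1/Col2a1 (-1.11 to -0.88) and Col10a1/Col2a1 (-0.40 to -0.28) did so too. Of 304 list counts recomputed, 21 moved by more than 1.5 times or fell to 0. Col10a1 and Col3a1 turned below 0 without control 1. Col5a3 turned below 0 with array weights and without mutant 1. Replicate numbers follow accession order and pair no samples, but title words are shared. With the title word as a fixed block, where mutant 2 has no control, limma called 0 genes, and the members had a median log2 change of 0.55 and an adjusted p of 0.598 each. As a random effect these were 0 genes, 0.52 and 0.665. The table holds no counts, so what depth limits cannot be stated.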
